A study of Mus musculus with 24 samples.

Results

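The Kruppel-like factor genes, Klf2, Klf3, Klf4, Klf6, Klf7, Klf9, Klf10 and Klf13, were described by the histone mark peaks over each gene body plus 20000 bp on each side. They are 8 of the 20665 protein-coding genes of the mm10 annotation (GRCm38.p6) on chromosomes 1 to 19, and were taken by name as a family in which Klf2 and Klf4 are tied to blood flow and vessel quiescence. Their windows held 344 of the 313065 peaks in the deposited lists. The peaks came from endothelial cells that had been isolated from mouse lung by flow cytometry, from Dnmt3a KO animals (KO) and from wild-type animals (WT). Dnmt3a encodes a DNA methyltransferase that sets methylation on unmethylated CpG sites. The sources used here do not give the strain, the age and sex of the mice, the design of the deletion or the cells it was made in. Histone marks were mapped by ACT-seq, in which a transposase bound to an antibody cuts and tags DNA at the mark. The 24 labelled samples make 8 groups of 3, the groups being WT and KO cells for each of H3K4me1, H3K27ac, H3K4me3 and H3K27me3. The labels do not say whether the 3 samples of a group came from separate animals.

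For each group there was 1 list of peaks, which gives the position and width of a peak and no height. Peak width is therefore the measure of extent below, no spread between replicates could enter, and no test between genotypes was possible. The depth of the samples is unknown. A peak was called shared where the other genotype's list for that mark had a peak over at least 1 of its bases, and WT-only or KO-only where it had none. Intervals beside shares and ratios are exact 95% binomial intervals. They cover the error of counting alone, as if each peak were independent. H3K4me1 was listed at 49363 places in WT and 48458 in KO, with 81112 and 44484 of H3K27ac, 14984 and 22724 of H3K4me3, and 20918 and 31022 of H3K27me3. H3K4me3 lay at a gene end (within 1000 bp) of 7 of 8 endothelial marker genes in WT and 8 of 8 in KO, Erg being the gene marked in KO only. It lay at 0 of 6 leukocyte markers in WT and 1 of 6 in KO (Cd79a, with none at Ptprc in either), at 1 of 6 (Sftpc) and 3 of 6 (with Epcam and Foxj1) epithelial markers, and at 0 of 6 and 1 of 6 (Acta2) mesenchymal and mural markers. Summed over the windows of each marker list, H3K4me3 covered 12297 bp in WT and 18704 bp in KO for the endothelial genes, 3082 and 3240 bp for leukocyte genes, 2048 and 2582 bp for epithelial genes, and 428 and 1087 bp for mesenchymal and mural genes. The part of these differences in the values below was not tested.

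Kruppel-like factors are transcription factors with zinc fingers at the C-terminal end that bind GC-rich and CACCC sequences. In endothelium, steady laminar shear stress acts through the kinases MEKK3, MEK5 and ERK5 and the MEF2 factors to raise transcription of Klf2 and Klf4, which in turn hold down inflammatory and clotting genes and raise nitric oxide synthesis. The other members include activators that respond to injury and repressors that recruit CtBP or SIN3 complexes. H3K4me3 marks promoters, H3K4me1 marks enhancers and the flanks of promoters, H3K27ac marks both kinds of site when active, and H3K27me3 is laid down by Polycomb repressive complex 2.

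The promoters of Klf2, Klf4 and Klf6 are shown because their start sites carried all 4 marks in both genotypes and because their base composition bears on a study of DNA methylation. Each line gives the 250 bases before the start of transcription in RefSeq's GRCm38.p6 promoters, 5′ to 3′ along the gene's strand. Capitals mark, in Klf2, a MEF2 palindrome (CTA and TAG with 4 bases between them) and the GC boxes (GGGCGG), in Klf4 the GC boxes and the core TGACG of the cyclic AMP response element, and in Klf6 the GC box and the CCAAT boxes, each read on either strand. They lie at chr8:72318812-72319061 on the plus strand, chr4:55532476-55532725 on the minus strand and chr13:5861239-5861488 on the plus strand.
Klf2 promoter: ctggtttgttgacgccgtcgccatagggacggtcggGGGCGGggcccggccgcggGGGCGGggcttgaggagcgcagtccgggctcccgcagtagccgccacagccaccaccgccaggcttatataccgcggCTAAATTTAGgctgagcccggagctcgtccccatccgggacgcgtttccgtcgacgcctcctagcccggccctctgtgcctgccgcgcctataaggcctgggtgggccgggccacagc
Klf4 promoter: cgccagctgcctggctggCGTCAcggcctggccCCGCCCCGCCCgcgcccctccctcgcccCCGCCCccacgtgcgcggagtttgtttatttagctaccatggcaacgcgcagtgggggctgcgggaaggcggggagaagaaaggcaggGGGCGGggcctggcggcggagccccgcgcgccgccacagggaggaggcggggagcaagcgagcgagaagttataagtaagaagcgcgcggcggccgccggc
Klf6 promoter: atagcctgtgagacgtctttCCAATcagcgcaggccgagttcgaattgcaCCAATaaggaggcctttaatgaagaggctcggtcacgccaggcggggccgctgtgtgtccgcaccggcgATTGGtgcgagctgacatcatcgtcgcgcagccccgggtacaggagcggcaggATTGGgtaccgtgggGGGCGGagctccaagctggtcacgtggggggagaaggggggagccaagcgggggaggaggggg

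Over the 7 members found in the promoter table, the median was 23 CpG in 250 bases, from 13 in Klf7 to 32 in Klf4, with 29 in Klf2. The median over all 32851 promoter windows of 27025 genes was 6, with quartiles of 2 and 16, so that Klf7 alone of the 7 lay below the upper quartile. The median GC content was 71.2% in the members and 52.4% in all windows. A GC box was found in 6 of the 7 members and in 32.7% of all windows, Klf9 being the member without one. The MEF2 palindrome, searched with any 4 bases between CTA and TAG, occurred in Klf2 alone among the 7 and in 3.20% of all windows. In Klf2 it read CTAAATTTAG from -118 to -109 relative to the start. The search did not limit the middle bases, so that share is not the share of a stricter MEF2 site. CACCC was found in 5 of 7 members and 52.0% of windows, TGACG in 4 of 7 and 17.8%, and CCAAT in 3 of 7 and 33.8%. Of the 4 GC boxes in Klf4, 2 shared 1 base at -212, and a GC box shared 1 base with a CACCC box in Klf3 and Klf13. A match describes the letters and does not show that a factor binds.

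All 8 genes had each of the 4 marks, including H3K27me3, within 1000 bp of the start site in both genotypes. Each mark lay at a gene end in both genotypes at 19.0% of all protein-coding genes. That count takes a mark at either end, so the marks of a gene could lie at different ends. It is therefore a looser measure than 4 marks at the start. Taken singly, H3K4me1 lay at a gene end in both genotypes at 37.1% of genes, H3K27ac at 45.7%, H3K4me3 at 45.4% and H3K27me3 at 34.4%. Of 8606 genes with H3K4me3 and H3K27ac at a gene end in both genotypes, 51.0% also had H3K27me3 at a gene end in both. That end was not always the same one. All 8 of 8 members had it by this count. Within 1000 bp of the start sites, the WT H3K27me3 peaks were 400 to 909 bp wide with a median of 635.5 bp, and the KO peaks 404 to 1011 bp with a median of 676.5 bp. Whether the active marks and H3K27me3 lay on the same nucleosomes, in the same cells or in different cells of the sort was not tested.

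**Figure D1:**
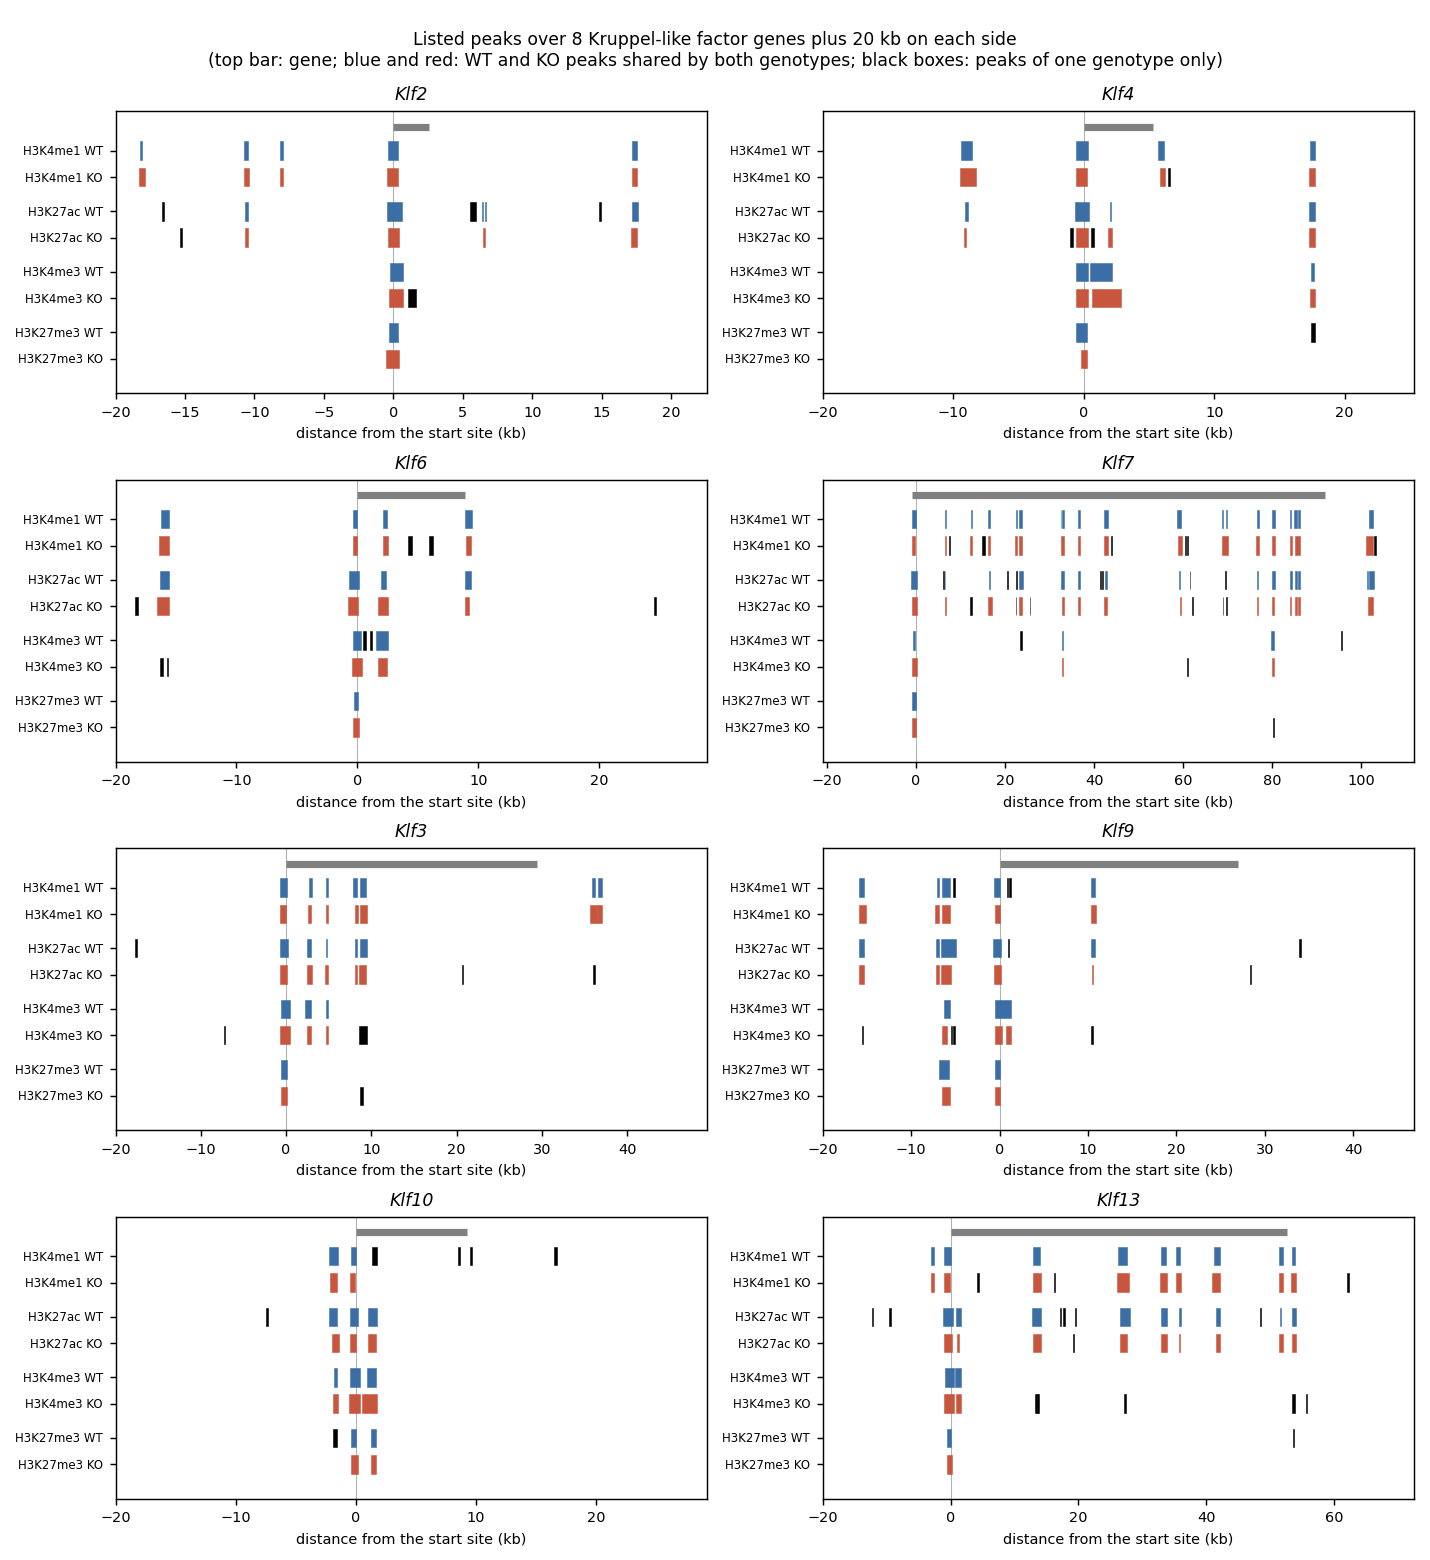
Positions of all listed peaks over the 8 genes plus 20000 bp on each side, as distance in kb from the start site (negative is upstream), with 1 row for each mark and genotype. Blue boxes are WT peaks and red boxes KO peaks shared between genotypes, black boxes are peaks of 1 genotype only, and the grey bar is the gene. All 8 genes have the 4 marks at the start in both genotypes, and most black boxes are narrow.

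Across the 8 windows the genotypes listed most active-mark peaks at the same places. Of the H3K4me1 peaks, 88.9% of 63 in WT (interval 78.4 to 95.4) and 81.3% of 64 in KO (69.5 to 89.9) were shared, against 76.5% and 75.5% over the windows of all protein-coding genes. Every WT H3K4me1 peak was shared at 6 of 8 members and at 42.1% of genes with such a peak, the exceptions being Klf9 and Klf10. For H3K27ac the shares were 71.8% of 71 WT peaks (59.9 to 81.9) and 76.2% of 63 KO peaks (63.8 to 86.0). Over all windows they were 42.5% and 71.3%. The interval of the WT share in the Kruppel-like factor windows lay above that background, and it had no replicate check. It takes each peak as independent, although 22 of the 71 WT peaks lay at Klf7 and 16 at Klf13. The WT H3K27ac list is also longer than the KO list, 81112 peaks against 44484, and its part in either share was not tested. With a reciprocal overlap of 50% the WT share was 54.9%, and the share over all windows at that setting is not given. For H3K4me3 the shares were 82.6% of 23 WT peaks (61.2 to 95.05) and 57.1% of 35 KO peaks (39.4 to 73.7), beside 85.0% and 56.2% over all windows. H3K27me3 had the fewest peaks, of which 76.9% of 13 in WT (46.2 to 94.96) and 83.3% of 12 in KO (51.6 to 97.9) were shared, beside 78.7% and 53.0%.

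By covered length, the summed width of a mark's peaks, H3K4me1 came to 32364 bp in WT and 39311 bp in KO over the 8 windows, a ratio of 1.21 beside 1.19 over all windows. H3K27ac came to 34861 and 31107 bp, 0.892 beside 0.769, and H3K4me3 to 16460 and 20881 bp, 1.27 beside 1.43. H3K27me3 came to 7627 bp in WT and 7467 bp in KO, a ratio of 0.979 beside 1.84. Its direction depended on the window, since over the gene bodies without flanks the ratio was 1.504.

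Peaks of 1 genotype were narrower than shared ones. The median width was 192.5 bp for the 20 WT-only H3K27ac peaks and 506 bp for the 51 shared WT peaks, and 201 bp for the 15 KO-only and 550.5 bp for the 48 shared KO peaks. The 15 KO-only H3K4me3 peaks had a median of 254 bp and the 20 shared KO peaks 832 bp.

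The covered length was then compared gene by gene as the ratio of KO to WT after adding 200 bp to both. The H3K27me3 ratio of all 8 members lay below the median of all genes. That median was 1.51, and the members had a median of 0.994. The ratio was 1.5-fold or more higher in KO at 50.8% of the 14346 genes with H3K27me3 and at 0 of 8 members, and 1.5-fold or more lower at 8.44% of genes and at 1 member, Klf4. For each mark, the genes counted had it in either genotype, whereas all 8 members had it in both. A gene with H3K27me3 in KO alone cannot come out lower, which raises the median and the share of all genes. The members were not compared with genes marked in both genotypes alone. For H3K4me3, 36.3% of 15003 genes and 0 of 8 members were higher in KO by that measure, and 2.91% of genes and 0 of 8 members were lower. The H3K4me3 medians were 1.31 over all genes and 1.26 over members. H3K27ac was lower in KO at 30.5% of 16540 genes and 1 member, Klf2, and higher at 3.09% and 0 members, with medians of 0.801 and 0.877. H3K4me1 was lower at 16.8% of 15100 genes and 1 member, Klf10, and higher at 14.1% and 0 members, with medians of 1.06 and 1.17.

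**Figure D2:**
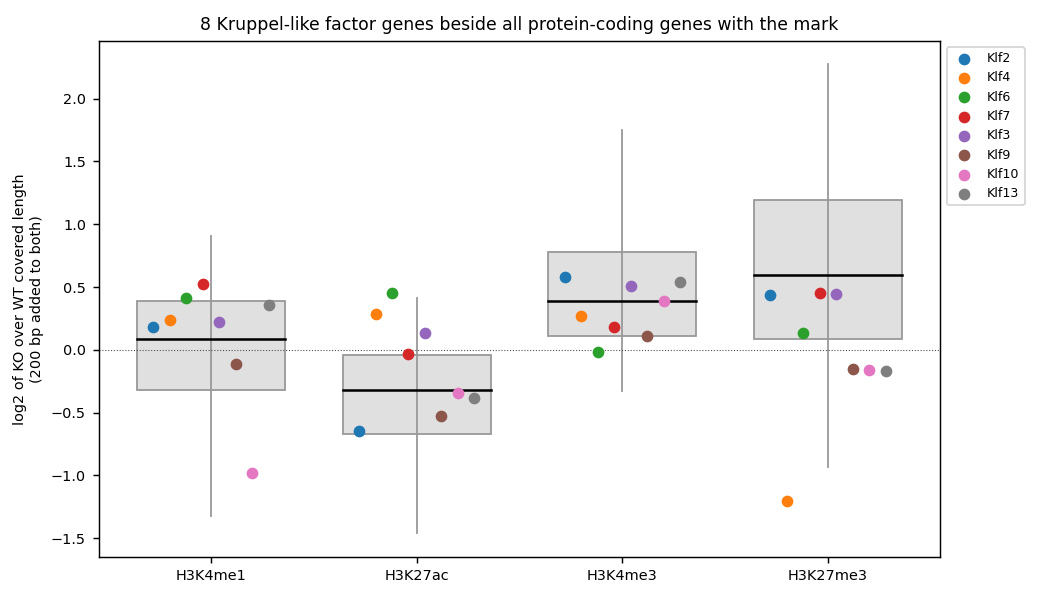
KO over WT covered length of each mark on a log2 axis, after adding 200 bp to both, for the 8 genes (coloured points) and for all protein-coding genes with the mark in either genotype (box from the 25th to the 75th percentile, bar at the median, line from the 5th to the 95th percentile). All 8 points lie below the bar for H3K27me3, with Klf4 lowest, and Klf10 is lowest for H3K4me1.

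Klf2, on chromosome 8 from 72319062 to 72321654, is the shear stress factor best known for keeping endothelium quiescent. Its start site carried a H3K4me3 peak of nearly the same width in both genotypes, 975 bp in WT (72318790 to 72319764) and 967 bp in KO (72318766 to 72319732). Both cover the promoter printed above and run into the gene. The KO list had a further H3K4me3 peak of 588 bp inside the gene, from 72320109 to 72320696, where no other mark was listed in either genotype. It brought the gene's H3K4me3 from 975 bp in WT to 1555 bp in KO. H3K27me3 at the start was 635 bp wide in WT and 933 bp in KO. H3K27ac was the mark with less extent in KO, 2792 bp in WT and 1713 bp in KO, a ratio of 0.639 that was higher than that of 26.7% of genes. The start itself had 1050 bp of H3K27ac in WT and 806 bp in KO, and 3 WT-only peaks lay at -16.55, 5.74 and 14.88 kb from it, the widest 456 bp (72324571 to 72325026).

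Klf2 had 4 H3K4me1 elements away from gene ends, and each was present in both genotypes. Those at -10.6 and 17.36 kb carried H3K27ac in both genotypes, and those at -18.11 and -8.05 kb carried none in either. The H3K4me1 at -18.11 kb, which lies at an end of the non-coding gene Gm40505, covered 183 bp in WT and 426 bp in KO. The window also reaches into the gene Eps15l1, so that a distal element there need not belong to Klf2.

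Klf4, on chromosome 4 from 55527137 to 55532475, is the other shear stress factor, and is also known as a reprogramming factor. At the start, its summed H3K27ac and H3K27me3 differed between genotypes in the opposite direction to those of Klf2. H3K4me1 and H3K4me3 at the Klf2 start were nearly equal in KO and WT, so no direction is read for them. H3K27me3 at the start spanned 878 bp in WT (55532215 to 55533092) and 404 bp in KO (55532259 to 55532662), the only start among the 8 with less of this mark in KO. A further WT H3K27me3 peak of 315 bp at 17.55 kb, on a distal element with H3K4me1, H3K27ac and H3K4me3 in both genotypes, had no KO counterpart. Together Klf4 had 1193 bp of H3K27me3 in WT and 404 bp in KO, a ratio of 0.434 that was higher than that of 3.00% of genes. Over the window each of the 3 active marks covered more in KO. H3K4me3 within 1000 bp of the start summed to 2679 bp in WT and 3214 bp in KO, most of it in a broad peak inside the gene of 1726 bp in WT (55530270 to 55531995) and 2230 bp in KO (55529639 to 55531868). H3K27ac covered 1844 bp in WT and 2290 bp in KO, with KO-only peaks of 198 bp at 0.67 kb and 224 bp at -0.91 kb flanking the start. The widest H3K27ac peak at the start was itself narrower in KO, 953 bp against 1043 bp in WT. The ratio of H3K27ac was higher than that of 92.3% of genes. The upstream H3K4me1 peak, at -8.98 kb in WT, was 806 bp wide there and 1277 bp in KO, where it was the widest H3K4me1 peak in the window.

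Klf6, on chromosome 13 from 5861489 to 5870393, is induced by vessel injury and activates genes of the TGF-beta pathway. It had the largest H3K27ac ratio of the 8, with 2377 bp in WT and 3321 bp in KO, higher than 95.5% of genes. Most of that difference lay away from the start, where H3K27ac was 829 bp wide in WT and 824 bp in KO. The peak inside the gene near 2.16 kb was 394 bp in WT and 786 bp in KO, and the upstream peak near -15.94 kb was 696 bp and 927 bp. The upstream site also held 2 KO-only H3K4me3 peaks, of 264 and 114 bp. Nearer the start the H3K4me3 order was mixed. The main start peak was 667 bp in WT and 816 bp in KO, whereas the peak near 2.02 kb was 980 and 763 bp. The WT list also had 2 narrow H3K4me3 peaks at 0.58 and 1.10 kb (195 and 138 bp) that KO lacked. The gene's H3K4me3 came to 1980 bp in WT and 1957 bp in KO, and this ratio was higher than that of 15.6% of genes, the lowest rank among the 8.

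Klf7, on chromosome 1 from 64029448 to 64122345, is a factor known from neuronal and fat cell differentiation. It showed the largest relative difference in H3K4me3 at a start site, 445 bp in WT (64121557 to 64122001) and 1136 bp in KO (64121183 to 64122318), a ratio of 2.55. The other marks at that start were of similar width in the 2 genotypes. H3K4me1 was 893 bp in WT and 785 bp in KO, H3K27ac 1205 and 1146 bp, and H3K27me3 909 and 1011 bp. The KO H3K4me3 peak thus had about the extent that the other 3 marks had in both genotypes, while the WT peak was narrower than each of them. Klf7 is also the longest of the 8 genes, at 92898 bp, and had 21 of the 55 distal elements described below. Its H3K4me1 came to 9518 bp in WT and 13784 bp in KO, a ratio higher than that of 83.1% of genes, with 6 KO-only peaks and 0 WT-only peaks.

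Klf3, on chromosome 5 from 64803521 to 64832901, is a repressor that recruits CtBP. Its start, which also lies within 1000 bp of an end of the protein-coding gene Gm38457, had 981 bp of H3K4me3 in WT and 1144 bp in KO. The widest of the 15 KO-only H3K4me3 peaks lay inside Klf3, 923 bp from 64812043 to 64812965. It lay on an element at 9.03 kb that had H3K4me1 in both genotypes (702 bp in WT and 831 bp in KO) and H3K27ac in both (831 bp and 720 bp within the element). A KO-only H3K27me3 peak of 314 bp lay on the same element. This was the 1 place in the 8 windows where KO-only peaks of H3K4me3 and H3K27me3 overlapped.

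Klf9, Klf10 and Klf13 are related repressors that recruit SIN3. Klf9, on chromosome 19 from 23141226 to 23168129, is a direct target of the glucocorticoid receptor. Its start had a single H3K4me3 peak of 1827 bp in WT (23140674 to 23142500), which in KO was listed as 2 peaks of 848 and 555 bp with a gap between them. In WT 2 narrow H3K4me1 peaks (212 and 162 bp) and a H3K27ac peak of 133 bp lay in the downstream part of that region, and KO had none of these. Farther away, 4 KO-only H3K4me3 peaks lay at -15.54, -5.49, -5.19 and 10.44 kb, of 140, 114, 224 and 275 bp. The region near -6 kb had all 4 marks in both genotypes, and it lies at an end of the non-coding gene 2410080I02Rik. Its H3K27ac peak was 1654 bp in WT and 1065 bp in KO.

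Klf10, on chromosome 15 from 38291464 to 38300711, is an early gene induced by TGF-beta. It was the member with the least H3K4me1 in KO relative to WT, 2278 bp in WT and 1058 bp in KO, a ratio of 0.508 that was higher than that of 8.88% of genes. The WT list had 6 H3K4me1 peaks, and 4 of them, of 469, 154, 199 and 297 bp at 1.57, 8.58, 9.57 and 16.61 kb, had no KO counterpart. The start of Klf10 was placed at the gene end nearer to its widest WT H3K4me3 peak, so the presence of that mark there is fixed by the choice. At the 1.57 kb site H3K27ac, H3K4me3 and H3K27me3 were all listed in both genotypes, so that H3K4me1 alone was missing from KO. H3K4me3 within 1000 bp of that start summed to 1634 bp in WT and 2184 bp in KO, and H3K27me3 to 409 and 633 bp. The peak inside the gene, with centre at 1.29 kb in WT, was 754 bp wide in WT and 1206 bp in KO.

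Klf13, on chromosome 7 from 63886351 to 63938915, is known from T cell and heart muscle gene control. It had 5 of the 15 KO-only H3K4me3 peaks, of 111 to 368 bp, at 13.39, 13.74, 27.34, 53.65 and 55.71 kb. The start showed no such excess, with H3K4me3 of 2394 bp in WT and 2292 bp in KO and less H3K27ac in KO, 1619 bp against 2379 bp in WT. The protein-coding gene E030018B13Rik lies inside Klf13, and the H3K27ac peaks near 17.76 and 19.24 kb are at its ends.

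**Figure D3:**
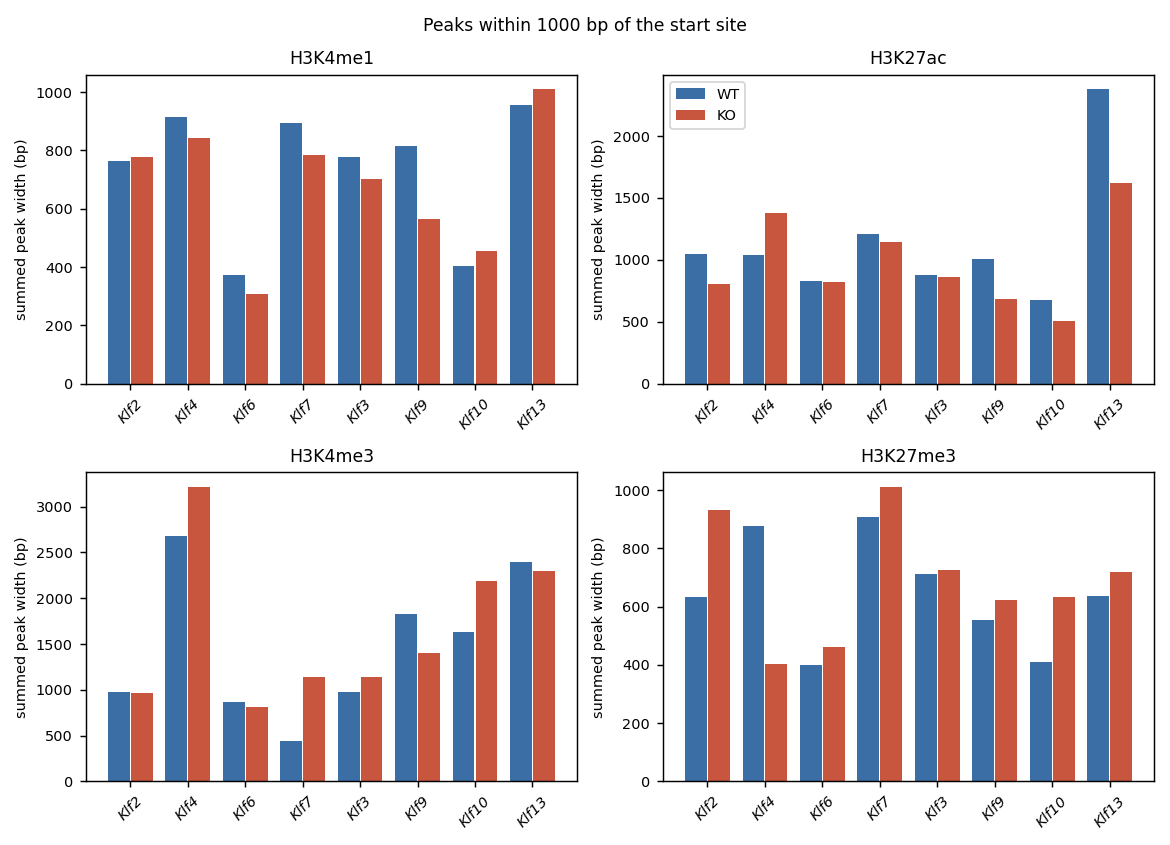
Summed width in bp of the peaks within 1000 bp of each start site, with WT in blue and KO in red, 1 list for each bar and no error bars. H3K27me3 is wider in KO at 7 of 8 starts and narrower at Klf4, beside 71.7% of pairs at gene ends wider in KO in the whole lists. H3K27ac is narrower in KO at 7 of 8 and wider at Klf4, where KO-only peaks add to the sum. Of H3K27ac pairs at gene ends in the whole lists, 37.3% were wider in KO. H3K4me3 at Klf7 is 445 bp in WT and 1136 bp in KO.

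At the 8 start sites together, H3K27me3 was wider in KO at 7 and narrower at 1, beside 71.7% of 6418 pairs of H3K27me3 peaks at gene ends in the whole lists that were wider in KO. The exact interval of 7 of 8, 47.3 to 99.7%, includes that share. In contrast, H3K27ac was wider in KO at 1 and narrower at 7, beside 37.3% of such pairs wider in KO in the whole lists. By summed width Klf4 was the exception for both marks. Its widest H3K27ac peak at the start was narrower in KO, 953 bp against 1043 bp in WT, and KO-only peaks made up the sum. H3K4me3 was wider in KO at 4 starts and narrower at 4, beside 73.4% of pairs at gene ends wider in KO in the whole lists. Its ratios ran from 0.768 at Klf9 to 2.55 at Klf7, with a median of 1.08. H3K4me1 was wider in KO at 3 and narrower at 5, with a median ratio of 0.913, beside 47.7% of pairs wider in KO. The start counts use the summed width at each start and the whole-list shares use single pairs of peaks, so they are not the same measure.

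Away from the starts H3K4me1 went the other way. Among WT and KO peaks that overlapped each other and no other peak, the KO peak was wider in 28 of 36 pairs away from gene ends (77.8%, interval 60.8 to 89.9) and in 4 of 12 pairs at gene ends (33.3%, 9.92 to 65.1). The median KO over WT width was 1.22 away from gene ends and 0.931 at them. The whole lists had the same order, with 68.1% of 27670 pairs wider in KO away from gene ends (median 1.17) and 47.7% of 6855 pairs at gene ends (median 0.983). For H3K27ac the KO peak was wider in 12 of 32 pairs away from ends and 2 of 13 at ends, beside 46.3% and 37.3% in the whole lists. For H3K4me3 it was wider in 3 of 7 and 8 of 11, beside 72.3% and 73.4%, so the few pairs away from gene ends in these windows did not lean toward KO as the whole list did, although an interval of 9.90 to 81.6% includes the list's share.

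Merging the H3K4me1 peaks of both genotypes gave 55 distal elements, stretches over 1000 bp from every protein-coding gene end. An element with H3K4me1 in a genotype is called active there where H3K27ac overlapped the merged stretch, and primed where it did not. Of the 55, 33 (60%) were active in both genotypes, against 33.6% of 36900 elements in the windows of all protein-coding genes. Klf7 had 14 of them, Klf13 5, Klf9 4, Klf3 3, Klf2, Klf4 and Klf6 2 each, and Klf10 1. At the Klf7 elements at 69.38 and 22.54 kb, the WT and KO H3K27ac peaks did not overlap each other. Loss of H3K27ac with H3K4me1 kept, active in WT but primed in KO, was listed at 0 of 55 elements, with an exact interval up to 6.49% that includes the 6.44% over all windows. The 2 elements that were primed in WT and active in KO, at Klf3 and Klf7, compare with 5.62% over all windows. H3K4me1 was listed in KO only at 12 elements (21.8%, beside 23.2% over all windows), 6 of them at Klf7, 3 at Klf13, 2 at Klf6 and 1 at Klf4. H3K27ac in KO lay on 0 of those 12, with an exact interval up to 26.5% that includes the 13.3% of the 8545 such elements over all windows. H3K4me1 in WT only was listed at 4 elements, 2 at Klf9 and 2 at Klf10, beside 18.0% over all windows.

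Among the 39 elements with H3K4me1 in both genotypes, H3K4me1 covered more in KO at 31, beside 69.3% of 21707 such elements over all windows. Of the 4 longest, 2 lay inside Klf13 and 2 in the Klf7 window. At Klf13 the element from 63910940 to 63912840 had 1471 bp of H3K4me1 in WT and 1901 bp in KO, 1487 and 1043 bp of H3K27ac, and 0 and 254 bp of H3K4me3. The element from 63924785 to 63926092 had 1014 and 1308 bp of H3K4me1, 1254 and 1207 bp of H3K27ac, and 0 and 542 bp of H3K4me3. At Klf7 the element from 64018740 to 64020210 had 918 and 1462 bp of H3K4me1 and 1082 and 1187 bp of H3K27ac. The element from 64051358 to 64052666 had 592 and 1309 bp of H3K4me1, as 2 WT peaks of 304 and 288 bp and a single KO peak, and 193 and 296 bp of H3K27ac. Its WT H3K27ac was a WT-only peak in the gap between the 2 WT H3K4me1 peaks. The KO H3K27ac was made of KO-only peaks of 134 and 162 bp at other positions. All 4 thus had more H3K4me1 in KO, whereas H3K27ac covered less in KO at both Klf13 elements and more at both Klf7 elements, and H3K4me3 was listed in KO at the Klf13 elements and in neither genotype at the Klf7 ones.

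**Figure D4:**
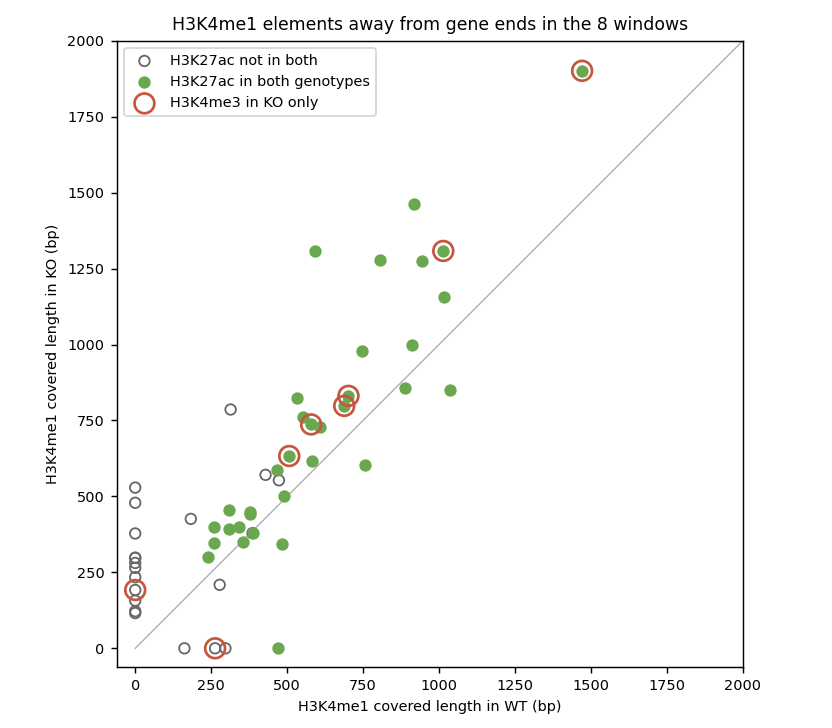
Covered length of H3K4me1 in bp in WT (x axis) and KO (y axis) at the 55 distal elements of the 8 windows, with the line of equal length. Green points have H3K27ac in both genotypes, open points do not, and red rings mark the 8 elements with H3K4me3 in KO only. Of the 39 elements off both axes, 31 lie above the line.

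Most KO-only H3K4me3 peaks overlapped listed H3K4me1 peaks, at a share near that of the whole lists. H3K4me3 numbered 23 peaks in WT and 35 in KO, a ratio of 1.52 (0.874 to 2.70), beside 1.44 over all windows. At least 1 KO-only H3K4me3 peak was found at 6 of 8 members, all except Klf4 and Klf10, and at 40.2% of all genes. At least 1 WT-only peak was found at 2 members, Klf6 and Klf7, and at 14.3% of genes. None of the 15 KO-only peaks lay within 1000 bp of a start, although the one at Klf2 began at 1047 bp. All 8 starts had a WT H3K4me3 peak, so most KO peaks there would be called shared. The absence is thus largely fixed by the WT peaks, and the share at starts over all genes is not given. Of the 15, 10 overlapped WT H3K4me1 (66.7%, interval 38.4 to 88.2) and 11 overlapped WT H3K27ac (73.3%, 44.9 to 92.2), beside 51.5% and 50% of the 11004 KO-only H3K4me3 peaks in the whole lists. Both intervals include the share of the whole lists. By element, 8 of 55 (14.5%) had H3K4me3 in KO only, against 10.2% over all windows. They lay in 5 genes, and 6 of the 8 had H3K4me1 and H3K27ac in both genotypes.

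H3K27me3 was listed in either genotype at 7 of the 55 distal elements (12.7%), beside 11.4% over all windows. At least 1 WT-only H3K27me3 peak was found at 3 of 8 members (Klf4, Klf10 and Klf13) and at 20.2% of genes, and at least 1 KO-only peak at 2 members (Klf3 and Klf7) and at 40.0% of genes. Each of these 5 peaks overlapped H3K4me1 and H3K27ac peaks of both genotypes. WT H3K4me1 overlapped 26.8% of the H3K27me3 peaks that were WT-only in the whole lists, and 13.5% of the KO-only ones. The 5 peaks were 197 to 342 bp wide. For H3K27ac, at least 1 WT-only peak lay at 6 of 8 members and 62.5% of genes, and at least 1 KO-only peak at 7 members and 32.5% of genes. For H3K4me1 the counts were 2 members and 41.5% of genes for WT-only peaks, and 4 members and 32.7% for KO-only peaks. Windows of the longer genes hold more peaks, and these counts are not adjusted for length.

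**Figure D5:**
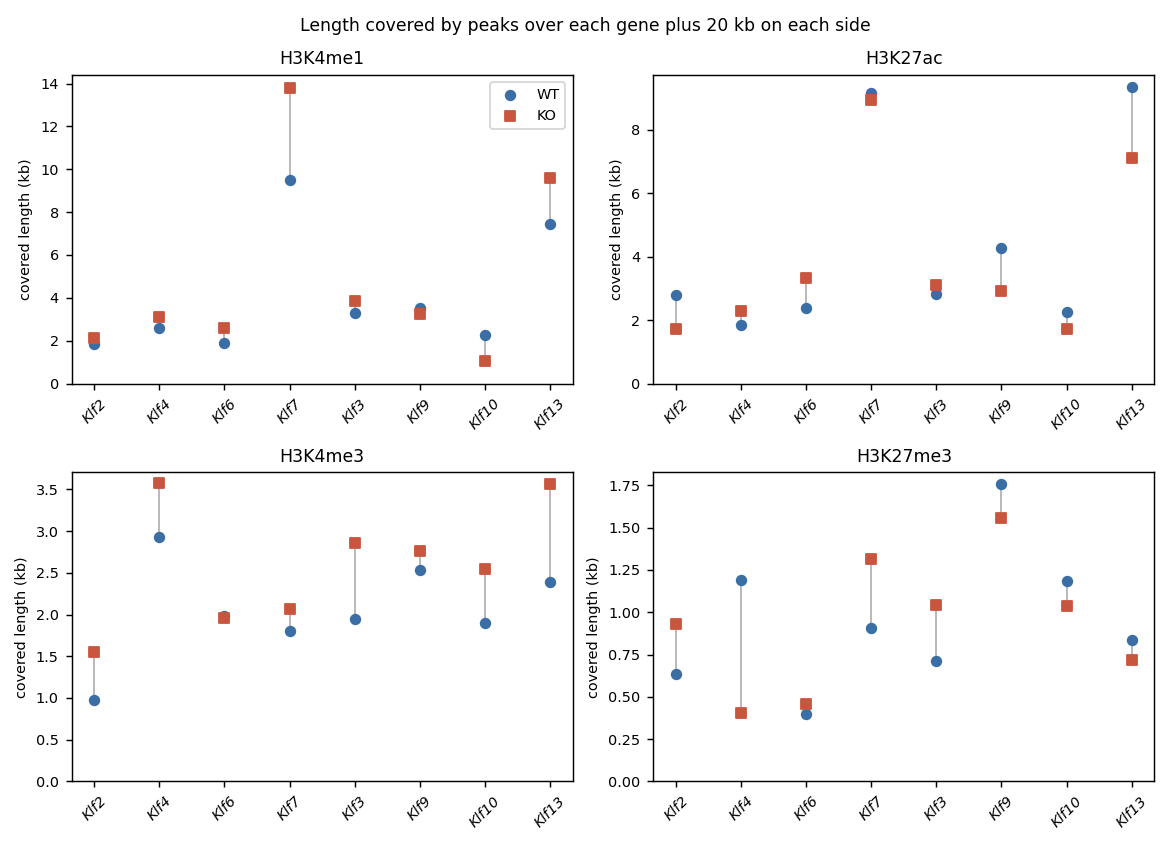
Length in kb covered by the peaks of each mark over each gene plus 20000 bp on each side, with WT as blue circles and KO as red squares, 1 list for each point. Klf7 and Klf13 have the most H3K4me1 and H3K27ac, and Klf4 has 1193 bp of H3K27me3 in WT and 404 bp in KO.

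The genes around these factors in the flow response were read the same way. Among the 8 kinases and MEF2 factors upstream of Klf2 and Klf4, the H3K4me3 and H3K4me1 ratios stayed within 1.5-fold at all 8. H3K27me3 was higher in KO at 2 and lower at 1, beside 50.8% and 8.44% of all genes. Mapk7, which encodes ERK5, had 402 bp in WT and 2813 bp in KO, whereas Mef2a had 996 bp in WT and none listed in KO. H3K27ac was lower in KO at 2 of 8, beside 30.5% of all genes, among them Map2k5, which encodes MEK5, with 1480 bp in WT and 609 bp in KO. For the 4 cerebral cavernous malformation proteins, which restrain MEKK3 in endothelium, H3K4me3 and H3K27ac were within 1.5-fold at all 4. Heg1, their membrane partner, had 557 bp of H3K27me3 in WT and none listed in KO, and was also the 1 gene of the 4 with H3K4me1 1.5-fold or more higher in KO, 4398 bp in WT and 7816 bp in KO.

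Among 11 flow sensors, H3K27me3 was higher in KO at 7 of the 8 with the mark and lower at 0, beside 50.8% of all genes higher. Piezo1, a stretch-gated channel, had none listed in WT and 379 bp in KO, and Trpv4, another channel, had 355 and 1864 bp. Flt4, Plxnd1 and Gnaq also had none listed in WT, with 175, 329 and 408 bp in KO. A gene with the mark in KO alone cannot come out lower, so part of this count is fixed in advance. The share over all genes holds such genes too. H3K4me3 was higher at 5 of 11 and lower at 1, beside 36.3% and 2.91% of all genes. Cdh5, the junction cadherin, had 2 H3K4me3 peaks with 1199 bp in WT and 8 with 2939 bp in KO.

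Of 13 genes raised by laminar flow or Klf2, H3K4me3 was higher in KO at 8 and lower at 0, with a median ratio of 1.64. Nos3, the endothelial nitric oxide synthase, had 631 bp in WT and 1769 bp in KO. H3K4me3 lay at a gene end in KO only at 4 of the 13, Hmox1, Nqo1, Adm and Cyp1b1, beside 6.9% of all genes. Of 13 genes lowered by flow, 8 had H3K4me3, which was higher in KO at 6 and lower at 1, with a median ratio of 1.94. Icam1, a leukocyte adhesion molecule, had 516 bp in WT and 2307 bp in KO, and F3, the initiator of clotting, had none listed in WT and 546 bp in KO. Both had H3K4me3 at a gene end in KO only. Both the genes known to be raised and those known to be lowered by flow thus included some with H3K4me3 1.5-fold or more higher in KO. The same held for 36.3% of all genes and 0 of the 8 Kruppel-like factors described here. That 0 depends on the cut, since Klf2 had a ratio of 1.49 and the 8 had a median of 1.26, beside 1.31 over all genes.

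Of 17 further family members (Klf and the related Sp genes), 16 had H3K27me3, which was higher in KO at 7 and lower at 0, beside 50.8% and 8.44% of all genes. Sp6 had the largest difference, 889 bp in WT and 7768 bp in KO. H3K27ac was lower in KO at 6 of 14 and higher at 1, beside 30.5% and 3.09% of all genes, and H3K4me3 was higher at 5 of 14 and lower at 1, beside 36.3% and 2.91%.

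The genes with the pattern most like that of Klf2, by Euclidean distance of log2(covered length + 200 bp) over the 8 lists among 20653 genes, were Nfkbia (0.335), 4933430I17Rik (0.529) and Usp32 (0.560), where the median gene lay at 4.07. Nfkbia, the inhibitor of NF-kappa-B, had 2722 bp of H3K27ac in WT and 2110 bp in KO, 954 and 1462 bp of H3K4me3, and 682 and 964 bp of H3K27me3. For Klf4 the nearest were Polr3c (0.922), Perm1 (0.969) and Ppox (1.03), where the median gene lay at 5.08. Klf2 and Klf4 lay 2.34 apart. Klf2 lay nearer to Klf10 (1.61), Klf6 (1.62) and Klf3 (1.82), and farther from Klf9 (2.42), Klf13 (4.15) and Klf7 (4.55).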

How the data were processed

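Peaks of 4 marks in KO and WT were taken as the authors' deposited lists, 1 for each group of 3 samples. Positions and widths in bp, a unit of the class other, were used as deposited by the authors. Per the submitters' processing notes, the tools were MACS2 2.1.2.1, deepTools 3.1.1, Bowtie2 2.2.6, SAMtools, cutadapt 1.14 and Trim Galore 0.4.4, with the builds mm10 and R64. The sources used here do not give their roles, the peak threshold or any pooling, and a threshold or depth that differed between lists would move peak numbers and widths. Depth per sample is unknown.

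Peaks were joined to RefSeq genes of GRCm38.p6 in pandas 2.3.3 and numpy 2.4.6 under Python 3.11.15, with intervals from scipy 1.17.1 and plots from matplotlib 3.10.9. The table has no exons, so "inside the gene" covers exon and intron. Intervals are Clopper-Pearson at 95%. Ratios were called past 1.5-fold after adding 200 bp to both lengths. Promoter sequences came from RefSeq, and 7 of 8 members matched.

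The members and gene lists were chosen with earlier results of these data known. Named genes were all 8 members, up to 6 genes a list with the largest ratios past 1.5-fold and genes with H3K4me3 at an end in 1 genotype only, and the 3 genes nearest Klf2 and Klf4. Of 67 listed genes 66 were found. 1 gene that the rule names, counted in its list, is not reported here. Klf8, on another chromosome, and H3K9me3 are not analysed here. On simulated lists 0 of 4000 peaks and 0 of 1200 windows differed from an exhaustive search. Alternatives were other flanks, width minimums, a reciprocal overlap, equal list sizes and keeping only peaks nearest to a member.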

Additional observations from a re-analysis of the deposited data

How the results depend on the processing

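The KO over WT ratios of number and covered length and the shares of common peaks, 16 results over the 4 marks, were recomputed under 8 alternatives. Of 120 values, 9 ratios turned to the other side of 1 and 8 shares lay outside the interval of the reported share. The other 103 did neither, which does not place them near the reported value. The KO H3K4me3 share of 57.1%, for instance, was 45.5% with 50000 bp flanks and 70.8% without flanks. The H3K27ac number ratio of 0.887 turned to 1.04 among peaks of at least 500 bp and to 1.17 with equal numbers of the widest peaks, while its covered length stayed lower in KO under all 7 alternatives that give it, 0.846 to 0.961. H3K27me3 had no settled direction. Its number ratio was 1.22 without flanks and 1.07 with 50000 bp, and its covered length ratio, 0.979 with 20000 bp, was 1.504, 1.07 and 1.04 with 0, 5000 and 50000 bp, 1.005 for peaks of at least 200 bp and 1.01 for 500 bp. The shared part of the WT H3K27me3 peaks was 100% without flanks. Among peaks of at least 500 bp, the shared part was 96.3% for H3K4me1 in WT, 84.6% for H3K27ac in WT and 82.4% for H3K4me3 in KO. With equal list sizes 83.3% of WT H3K27ac peaks were shared. A reciprocal overlap of 50% gave 73.0% for WT H3K4me1, 54.9% for WT and 61.9% for KO H3K27ac. The H3K4me1 and H3K4me3 ratios stayed above 1, 1.02 to 1.26 and 1.13 to 1.83 by number and 1.18 to 1.44 and 1.17 to 1.38 by covered length. The cause of these shifts was not tested beyond the settings themselves, and counts as low as 12 peaks limit the H3K27me3 values most. No paired analysis was possible because the lists hold no values per sample, and leaving out replicates could not be run for the same reason.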
